A study of Mus musculus with 14 samples.

Results

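The free pool and the single-ribosome pool of mRNA were compared end by end in 3T3 cells, a mouse embryonic fibroblast line. An mRNA without ribosomes sediments near the top of a sucrose gradient as a ribonucleoprotein particle. An mRNA with 1 ribosome sediments just below it as a monosome, and mRNAs with several ribosomes form polysomes further down. Ribosome-free mRNA includes newly exported, stored and translationally repressed transcripts as well as polyadenylated RNAs that code for no protein. Monosomes are found on short coding regions and on mRNAs that are initiated rarely.

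The members are 3' ends, the positions where polyadenylated RNAs stop. An end was taken when its counts in the ribosome-free and the monosome library summed to 60 or more. This rule kept 8337 of 33590 listed ends, or 24.8%, in 6520 loci, a locus being the ends of 1 strand that each lie within 2000 nt of the next. The ratio of an end is its ribosome-free count over its monosome count, each divided by the library's factor in the file headers. The file gives ends by chromosome, strand and position in the mm9 build and names no genes. Ends are therefore called here by position, their coding or noncoding nature is not known, and fibroblast markers could not be looked up.

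All libraries used here were made by 2P-Seq, which primes on the poly(A) tail and counts reads at the 3' end. The gradient of untreated cells gave a ribosome-free library, a monosome library and 4 later libraries, whose columns carry 2.5, 4.5, 7.5 and 12 ribosomes per mRNA. The identity of the ribosome-free and the monosome library rests on their column names, 0 and 1. The other libraries used are 1 each after 1, 2, 4 and 8 h in 10 µg/ml actinomycin D, and 2 of untreated controls. Actinomycin D is a DNA intercalator that stops new transcription. Each fraction is 1 library from 1 gradient, so no ratio carries a replicate error, and intervals on ratios are exact 95% intervals that cover counting error only. The ribosome-free library held 1663346 counts, the smallest of the gradient, and the monosome library 4173629. The 10 highest ends took 21.9% of the ribosome-free counts and 19.9% of the monosome counts, against 6.59% to 13.8% in the later fractions. Members held 95.2% of the ribosome-free and 95.7% of the monosome counts.

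Most ends had less ribosome-free than monosome signal. The median ratio over the 8337 ends was 0.545, a log2 ratio of -0.88, and the middle 50% of log2 ratios ran from -1.51 to -0.23. The ratio was above 1 at 1567 ends, or 18.8%. The counting interval lay wholly above 1 at 792 ends, wholly below 1 at 5455 ends, and spanned 1 at 2090 ends. The median member had 48 ribosome-free and 120 monosome counts, so single ratios near the median are coarse. The SD of the log2 ratio was 0.99 over the 8140 members with at least 60 control counts, against 0.44 for the log2 ratio of one control library to the other over the same ends. The controls had a higher median count, 561, so their smaller spread also holds less counting error.

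At a ratio of 2 or more, 285 ends in 250 loci were called mainly ribosome-free, which is 3.42% of the members. At a ratio of 0.5 or less, 3744 ends in 3036 loci were called mainly monosome, which is 44.9%. The remaining 4308 lay between. These names compare the ribosome-free with the monosome fraction only and do not place an end in the whole gradient. The median end had 89.9% of its scaled gradient counts in the later fractions in the first class and 85.5% in the second. With library totals in place of the header factors, 1114 ends were mainly ribosome-free and 1469 mainly monosome, and the median log2 ratio moved to -0.12. The order of the ends does not depend on this choice, but where 1 lies does, so both class sizes hold only for the deposited factors. Just inside the upper limit the ratios were 2.00, 2.00 and 2.01, and just outside it 2.00, 1.99 and 1.99, so the limit falls in a continuous distribution. The 74 ends with exactly 60 counts had a median log2 ratio of -0.89, and the 86 ends with 59 counts, just left out, -0.68.

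**Figure D1:**
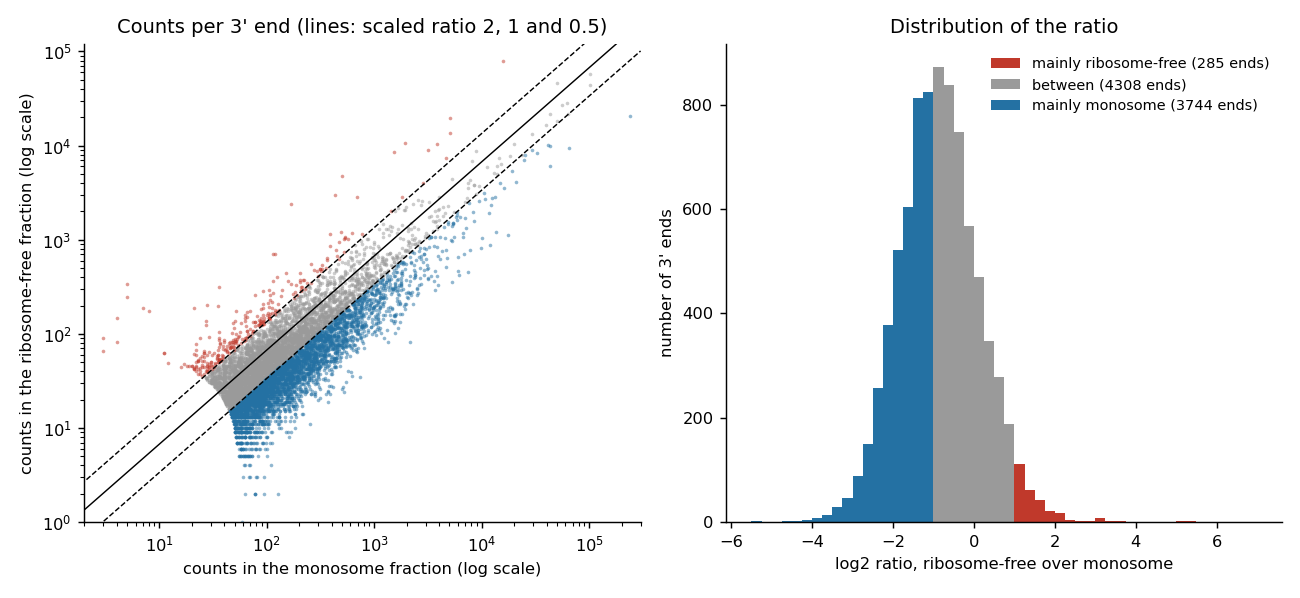
Left, counts of each of the 8337 ends in the ribosome-free fraction (vertical, log scale) against the monosome fraction (horizontal, log scale), with lines at scaled ratios of 2, 1 and 0.5. Right, number of ends by log2 ratio, coloured by class: 285 ends lie at 2 or more and 3744 at 0.5 or less.

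The ends that stood highest by the lower bound of their interval had 70.9% to 98.0% of their scaled gradient counts in the ribosome-free fraction. At position 29136652 on the + strand of chromosome 7, 335 counts were ribosome-free and 5 monosome, a ratio of 99.4 (interval 42.2 to 308). That end had 3, 1, 0 and 0 counts in the 4 later fractions, and 98.0% of its scaled gradient counts were ribosome-free. The end at 130102109 on the + strand of chromosome 2 followed with 246 ribosome-free and 5 monosome counts, a ratio of 73.0 (30.9 to 227). On the + strand of chromosome 12, the end at 16946928 had 148 ribosome-free and 4 monosome counts, a ratio of 54.9 (21.0 to 204). These 3 ends were rare in the controls, at 12.1, 3.24 and 3.08 CPM (counts scaled to the library total, mean of the 2 control libraries).

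Ends with far more reads also stood in this list. The end at 52713305 on the - strand of chromosome 7 had 2421 ribosome-free and 167 monosome counts, a ratio of 21.5 (18.4 to 25.3), and 79.6% of its gradient signal was ribosome-free. At 118950768 on the - strand of chromosome 4, 4761 counts were ribosome-free and 500 monosome, a ratio of 14.1 (12.9 to 15.5). The remaining 5 of the 10 were on chromosome 16 (23111506 and 23111836, + strand, 1 locus), chromosome 17 (13115783, +), chromosome 1 (158612873, -) and chromosome 11 (55296329, +), with ratios of 30.4 to 45.0. Over the 10 ends, the later fractions together held between 0.99% and 24.1% of the gradient signal.

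The 10 ends with the lowest upper bounds did not mirror this. The lowest upper bound belonged to the end at 38352816 on the + strand of chromosome 16, with 82 ribosome-free and 2143 monosome counts, a ratio of 0.0568 (0.0450 to 0.0708). It had 27.9% of its gradient signal in the monosome fraction but 47.8% in the next one, named 2.5. The lowest ratio of all, 0.0235 (0.00282 to 0.0868), was that of 173527483 on the + strand of chromosome 2, with 2 ribosome-free and 126 monosome counts. The abundant end at 6508289 on the - strand of chromosome 6 had 1109 ribosome-free and 17522 monosome counts, a ratio of 0.0939, and 53.6% of its signal in the 2.5 fraction. Of these 10 ends, 9 had more signal in the 2.5 than in the monosome fraction. The exception in this list was 21873145 on the + strand of chromosome 14, with 4.43% ribosome-free, 62.4% monosome and 22.6% in the 2.5 fraction. A list by the upper bound favours deeply counted ends. Over all members, 12 ends had 50% or more of the gradient in the monosome fraction, with a median log2 ratio of -3.09.

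The most abundant ends of the controls were spread over the range of ratios. At 163645025 on the - strand of chromosome X, 20394 counts were ribosome-free and 238982 monosome, a ratio of 0.127 (0.125 to 0.128). It had 36.0% of its signal there, 44.6% in the 2.5 fraction and 4.55% ribosome-free. The end at 48619586 on the + strand of chromosome 11 had 57074 ribosome-free and 100766 monosome counts, a ratio of 0.840 (0.832 to 0.849), and 22.6% of its signal was ribosome-free. The most abundant end, at 34316013 on the - strand of chromosome 19 with 10312 CPM, had 4426 ribosome-free and 5268 monosome counts, a ratio of 1.25 (1.20 to 1.30), but 45.8% of its signal in the 12 fraction. Of the 10 most abundant ends, 3 were mainly monosome and 7 lay between.

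**Figure D2:**
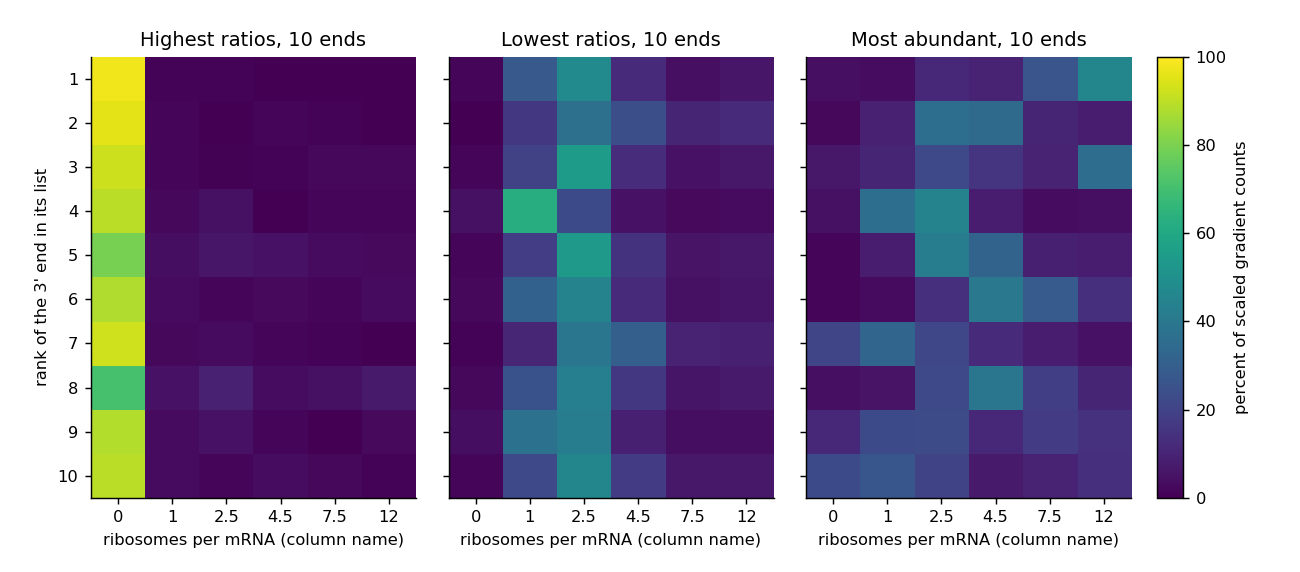
Percent of scaled gradient counts (colour) in each of the 6 fractions (columns, named by ribosomes per mRNA). Rows are by rank: the 10 ends with the highest lower bounds of the ratio and the 10 with the lowest upper bounds. The last 10 are the most abundant in the controls. Ends of the first set have 70.9% to 98.0% in the ribosome-free column, while 9 of the second have more in the 2.5 than in the monosome column.

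Few ends lay mainly in either light fraction when the whole gradient was counted. The median member had 4.03% of its scaled gradient counts ribosome-free, 7.66% in the monosome fraction and 88.0% in the 4 later fractions. Only 36 of 8337 ends had 50% or more ribosome-free, 12 had 50% or more in the monosome fraction, and 170 had under 50% in the later fractions. Within the mainly ribosome-free class, a split at 50% in the later fractions, chosen after the values were seen, left 2 unlike sets. In 42 ends of 32 loci the median was 65.3% ribosome-free, 10.7% monosome and 17.9% later. In the other 243 ends it was 6.33% ribosome-free, 2.39% monosome and 91.2% later. For most of the class, a high ratio went with a small monosome share and most signal in the later fractions. The mainly monosome class held 43 ends under 50% later, with a median of 45.3% monosome, and 3701 ends at 50% or more, with a median of 10.9% monosome.

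Ratio and polysome position went together. The mean ribosome number of the 4 later fractions, which the ratio does not use, had a median of 7.92 in the mainly ribosome-free class, 7.46 between and 5.97 in the mainly monosome class. Over deciles of the ratio from low to high the median rose at every step, starting at 4.90 and ending at 7.91. The light part of the mainly ribosome-free class did not follow this. Its 42 ends with under 50% in the later fractions had a median of 5.42, below the 6.91 of all members. The other 243 ends of the class had 8.18. Spearman's rank correlation between the ratio and this mean was 0.44 over 8337 ends, and with the share in the later fractions 0.37. Unlike the mean, that share is taken over the whole gradient, so it contains the counts that form the ratio. A higher monosome count lowers ratio and share alike, while a higher ribosome-free count raises the ratio and lowers the share. The value of 0.37 is thus partly set by construction, and no relation is read from it. All points share the same 6 gradient libraries, and the ratio, the mean and the share are all taken from 1 gradient, so these are descriptions.

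Abundance before treatment was higher at ends with higher ratios. Median control abundance was 55.2 CPM in the mainly ribosome-free class, 50.7 CPM between and 35.7 CPM in the mainly monosome class. The ribosome-free class was not uniform. Its 42 ends with under 50% of the gradient in the later fractions had a median of 15.4 CPM, and its other 243 ends 61.0 CPM. In the mainly monosome class these medians were 10.4 CPM (43 ends) and 35.8 CPM (3701 ends). It was 27.9 CPM in the lowest and 59.9 CPM in the highest decile of the ratio, and it went up at each step between them. Read the other way, the mainly monosome share was 61.3%, 45.8%, 42.9%, 40.4% and 34.1% over abundance quintiles from low to high. The mainly ribosome-free share moved less, at 2.94%, 2.76%, 3.06%, 3.48% and 4.86%. Spearman's rank correlation between ratio and control CPM was 0.21 over 8337 ends.

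The rule on counts bears on this relation, because a rare end reaches 60 light counts only if much of it is light. The summed counts are not scaled and the monosome library is the deeper one. A rare end therefore passes more easily through monosome than through ribosome-free signal. Where the rule removes little, at 50 control CPM or more, 3756 of 3878 listed ends (96.9%) were members, and the rank correlation was 0.090. In bins of the summed light count it was 0.36 (60 to under 120 counts), 0.37 (120 to under 300), 0.45 (300 to under 1000) and 0.31 (1000 or more). Within such a bin, by construction, a more abundant end has fewer light counts per control read. The sign was positive in each of these sets, and the size depended on how ends were chosen.

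**Figure D3:**
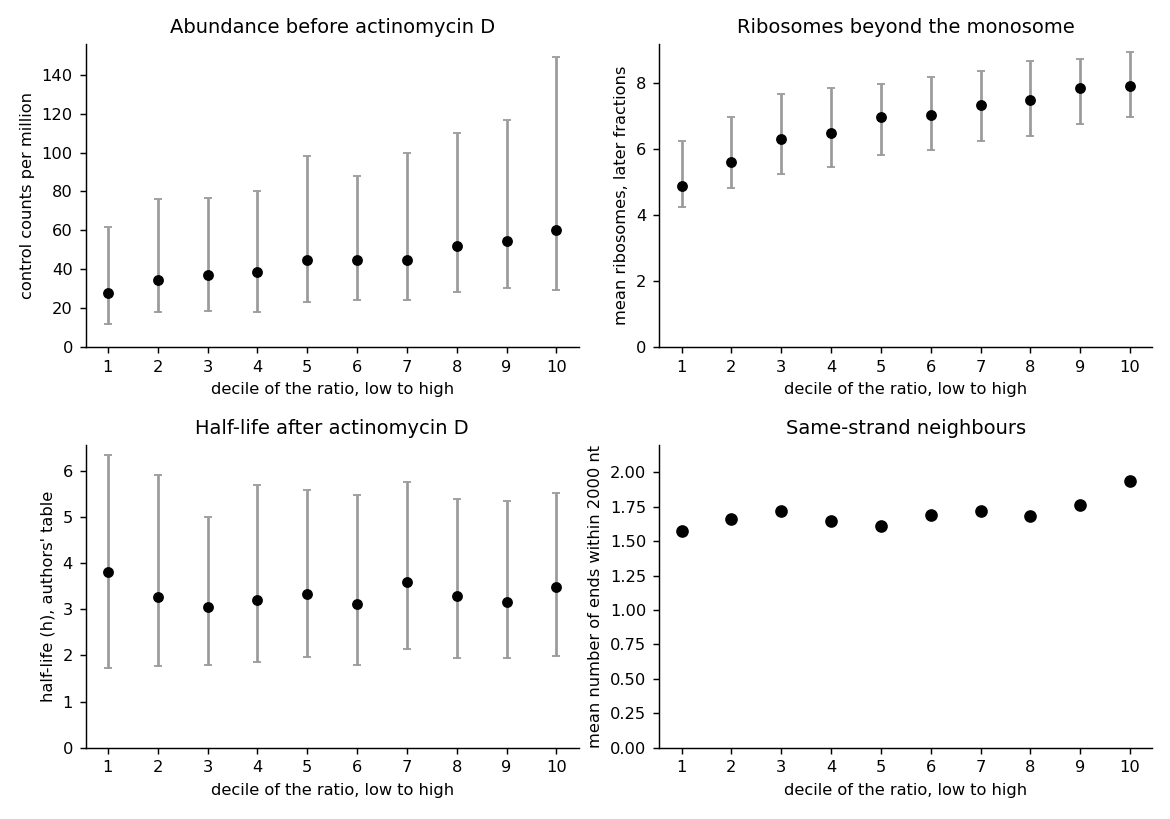
Deciles of the ratio, from low (1) to high (10): control abundance, mean ribosome number in the later fractions and the authors' deposited half-life, as medians with the middle 50% of ends, and the mean number of same-strand ends within 2000 nt. Medians of abundance (27.9 to 59.9 CPM) and later ribosomes (4.90 to 7.91) climb, half-life stays between 3.04 and 3.80 h, and neighbours differ mainly in the top decile.

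Crowding of ends on a strand went weakly with the ratio. Ends with 0, 1, 2, 3 and 4 or more same-strand neighbours within 2000 nt had median log2 ratios of -0.90, -0.92, -0.82, -0.84 and -0.83. The mainly ribosome-free share was 2.93%, 2.89%, 3.17%, 4.20% and 5.12% in that order, with 95% Wilson intervals of 3.97% to 6.58% at 4 or more neighbours and 2.32% to 3.70% at 0. The mainly monosome share was 46.4%, 46.5%, 43.2%, 43.5% and 42.7%. The rank correlation was 0.041 over 8337 ends. Crowded ends were also rarer, with a median of 32.2 CPM at 4 or more neighbours and 52.5 CPM at 0.

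Ends of 1 locus are not independent, and these shares count several of them. With 1 end per locus, the one with most light counts, the mainly ribosome-free share was 4.15% at 4 or more neighbours (24 of 578 ends, interval 2.81% to 6.10%) and 2.93% at 0 (68 of 2319), and the intervals overlapped. Among members at 50 CPM or more it was 6.40% at 4 or more (24 of 375, interval 4.34% to 9.35%) and 3.27% at 0 (40 of 1222, interval 2.41% to 4.43%). By place in the locus, the median log2 ratio was -0.83 at the last end, -0.82 at middle ends, -0.98 at the first end and -0.90 at single ends.

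Loss after actinomycin D was the one readout with a test, a slope on hours fitted to the 2 controls and the 4 treated libraries over all 16913 ends with at least 60 counts in them. The slope is a log2 change per hour relative to the typical end. Rising thus covers ends lost more slowly than most, kept or gained. In the mainly ribosome-free class 77 of 285 fell (27.0%) and 91 rose (31.9%), calls being made at a Benjamini-Hochberg adjusted p under 0.05 in edgeR's quasi-likelihood test. In the mainly monosome class 1169 of 3732 fell (31.3%) and 1045 rose (28.0%). Of all 8321 members fitted, 2618 (31.5%) fell and 2353 (28.3%) rose, and of all ends fitted, 28.2% fell and 20.8% rose. The classes' shares lay near those of all members, and no difference between classes was tested.

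Levels over time showed the same closeness. Levels here are counts divided by the header factors, as percent of the control mean. The median end of the mainly ribosome-free class had 112%, 87.7%, 70.3% and 52.2% after 1, 2, 4 and 8 h. That of the mainly monosome class had 97.1%, 78.9%, 63.7% and 42.1%. The half-life in the authors' deposited table had a median of 3.62 h in the mainly ribosome-free class (277 ends with a value), 3.34 h between (4280 ends) and 3.28 h in the mainly monosome class (3719 ends). Over the ratio deciles its median had no steady order, lying between 3.04 and 3.80 h in the authors' deposited table. Spearman's rank correlation of the ratio was -0.014 with the slope (8321 ends) and 0.0013 with the deposited half-life (8276 ends).

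The share of the gradient outside the later fractions went with the slope, although no difference between sets was tested. Of the 170 ends with under 50% of the gradient in the later fractions, called light here, 166 could be fitted, and 126 rose (75.9%) while 0 fell. At an unadjusted p under 0.05 in edgeR, 128 of them rose and 3 fell, and DESeq2 called 126 rising and 2 falling after adjustment. Of the 8155 other members fitted, 2227 rose (27.3%) and 2618 fell (32.1%). With the authors' header factors, which set the typical end as falling, 48 of the 166 rose and 14 fell, against 214 rising and 4820 falling of the 8155. The limit of 50% was chosen after the values were seen.

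Light ends of both classes showed this relative to the typical end. In the mainly ribosome-free class, 25 of the 42 light ends rose and 0 fell, against 66 rising and 77 falling of the 243 with most signal in the later fractions. In the mainly monosome class, 29 of 42 light ends fitted rose and 0 fell, against 1016 rising and 1169 falling of 3690. Without the 8 h library, 16 of the 42 light ribosome-free class ends rose. With the header factors, 9 of these 42 fell and 7 rose, against 144 falling and 6 rising of the other 243, and 1 of the 42 light monosome class ends fell and 9 rose. Unadjusted, 3 and 0 light ends of the 2 classes fell in edgeR, and DESeq2 called 2 and 0 falling after adjustment. With counts divided by the header factors, the median light end of the mainly ribosome-free class had 148% of its control level after 8 h. That of the mainly monosome class had 123%, against 43.6% and 41.3% in the other ends of these classes. Median half-lives of the light ends in the authors' deposited table were 8.00 h (36 ends with a value) and 8.04 h (38 ends). The other ends of the 2 classes had 3.41 h (241 ends) and 3.25 h (3681 ends). Light ends without a value, such as 118950768 on chromosome 4, are not in these medians. In members refitted, the deposited decay rate matched a fitted rate raised by 0.1 per h. The long half-lives of ends with little or no loss therefore depend on that constant and are not read as decay times.

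Calls also went with abundance, whose part in the light ends' calls was not tested. Of the top abundance quintile 51.7% rose, against 19.8% of the lowest. The 170 light ends had a median of 14.2 CPM and a middle 50% of 5.41 to 80.5 CPM, and 1 of the 10 most abundant members, at 13512033 on the + strand of chromosome 7, was light with 46.3% in the later fractions. Among members at 50 CPM or more, 48 of 55 light ends rose and 0 fell, against 1394 rising and 1011 falling of the other 3701. Of these 55, 1 fell at an unadjusted p under 0.05 in edgeR, and DESeq2 called 0 falling after adjustment. The 170 light ends came from 136 loci, so some calls share a locus.

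Single light ends show what the calls rest on. The end at 10059583 on the + strand of chromosome 19 had the most ribosome-free counts of the rising ends in its class, 79203 against 15806 monosome counts, a ratio of 7.43, with 33.3% of the gradient later. Its level was 5000 and 4502 CPM in the controls and then 5548, 7526, 7843 and 10689 CPM at 1, 2, 4 and 8 h. All 4 treated libraries lay above both controls, and the slope was 0.25 ± 0.03 per hour (SE, adjusted p = 0.00015, edgeR). A neighbouring end of the same locus, at 10059604, had a ratio of 8.24, with 722 and 609 CPM in the controls and 714, 907, 1044 and 1201 CPM after treatment.

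The end at 118950768 on chromosome 4 had 250 and 85.8 CPM in the controls and 98.7, 330, 544 and 1055 CPM at 1, 2, 4 and 8 h. Its slope was 0.47 ± 0.10 per hour (SE, adjusted p = 0.0095, edgeR), although the controls differed from each other and bracketed the 1 h library. The end at 52713305 on chromosome 7 rose in the test (slope 0.17 ± 0.05, adjusted p = 0.011, edgeR) at 74.8 and 55.3 CPM in the controls and 61.4, 91.1, 107 and 79.3 CPM in the treated libraries, which overlap the controls. With counts divided by the header factors, it had 98.4% of its control level at 8 h, against 42.2% for the median member.

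The 3 ends with the highest lower bounds did not pass the test. The end at 130102109 on chromosome 2 had 4.62 and 1.87 CPM in the controls and 33.2, 24.1, 17.03 and 12.6 CPM at 1, 2, 4 and 8 h, highest at 1 h and then lower, and did not pass the test (slope 0.16 ± 0.23, adjusted p = 0.60, edgeR). The end at 16946928 on chromosome 12 had 4.45 and 1.71 CPM in the controls and 13.3, 21.8, 17.8 and 14.3 CPM after treatment (adjusted p = 0.18, edgeR). At both ends every treated library lay above both controls, and the highest came at 1 or 2 h. The end with the highest ratio, 29136652 on chromosome 7, had 15.4 and 8.70 CPM in the controls and 26.7, 22.0, 9.11 and 4.94 CPM after treatment (adjusted p = 0.37, edgeR). Of the 10 ends with the highest lower bounds, 4 rose and 0 fell, where 28.3% of all members fitted rose and 31.5% fell.

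Among the 10 ends with the lowest upper bounds 7 rose and 1 fell, where 28.3% of all members fitted rose and 31.5% fell. This list favours deeply counted ends, and 51.7% of the top abundance quintile rose. The count is therefore not read as a trait of monosome ends. The end at 38352816 on chromosome 16 had 74.1 and 73.4 CPM in the controls and 70.4, 75.6, 105 and 144 CPM at 1, 2, 4 and 8 h (slope 0.24 ± 0.03, adjusted p = 9.4e-05, edgeR). The one that fell was 173527483 on chromosome 2, with 10.4 and 10.9 CPM in the controls and 6.55, 4.61, 1.58 and 0.494 CPM after treatment (slope -0.48 ± 0.09, adjusted p = 0.00096, edgeR). All 4 of its treated libraries lay below both controls, and each later time was lower than the one before. All 10 of the most abundant ends rose in the test relative to the typical end, where 51.7% of the top abundance quintile rose. The end at 163645025 on chromosome X had 6812 and 8791 CPM in the controls and 10281, 11011, 13867 and 17518 CPM at 1, 2, 4 and 8 h.

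Alternative 3' ends of a locus mostly shared their ratio. The 2 member ends with most counts in a locus gave 1356 pairs, and the median of distal minus proximal log2 ratio was 0.037, with a middle 50% of -0.28 to 0.43. Spearman's rank correlation between the log2 ratios of the 2 ends was 0.79 over 1356 pairs. The distal ratio was 2-fold or more higher in 110 pairs (8.11%) and 2-fold or more lower in 63 (4.65%). Both ends were mainly ribosome-free in 24 pairs, both mainly monosome in 509, and 1 pair joined one end of each class.

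The share of pairs with a 2-fold difference went up with the distance between the ends. A difference of 2-fold or more in either direction was found in 4.52% of 509 pairs under 100 nt apart, 14.1% of 362 pairs at 100 to under 500 nt, 16.5% of 194 pairs at 500 to under 1000 nt and 23.0% of 291 pairs at 1000 nt or more. The rank correlation between the ends was 0.90, 0.78, 0.74 and 0.63 in that order. The median size of the log2 difference was 0.23, 0.43, 0.55 and 0.51, so it did not grow further beyond 1000 nt. The median summed counts of a pair were 555, 499, 429.5 and 421, so distant pairs were somewhat less deeply counted. Distal ends were higher more often than lower at 1000 nt or more (44 against 23 pairs) and at 100 to under 500 nt (38 against 13), but not at 500 to under 1000 nt (14 against 18). With 300 counts required of each end, 266 pairs were left. The distal ratio was 2-fold higher in 3 (1.13%) and lower in 8 (3.01%), against 8.11% and 4.65% of all 1356 pairs. Differences of 2-fold were thus rarer among deeply counted pairs, and the few left had the opposite split. The part of counting error in the rise with distance was not tested.

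**Figure D4:**
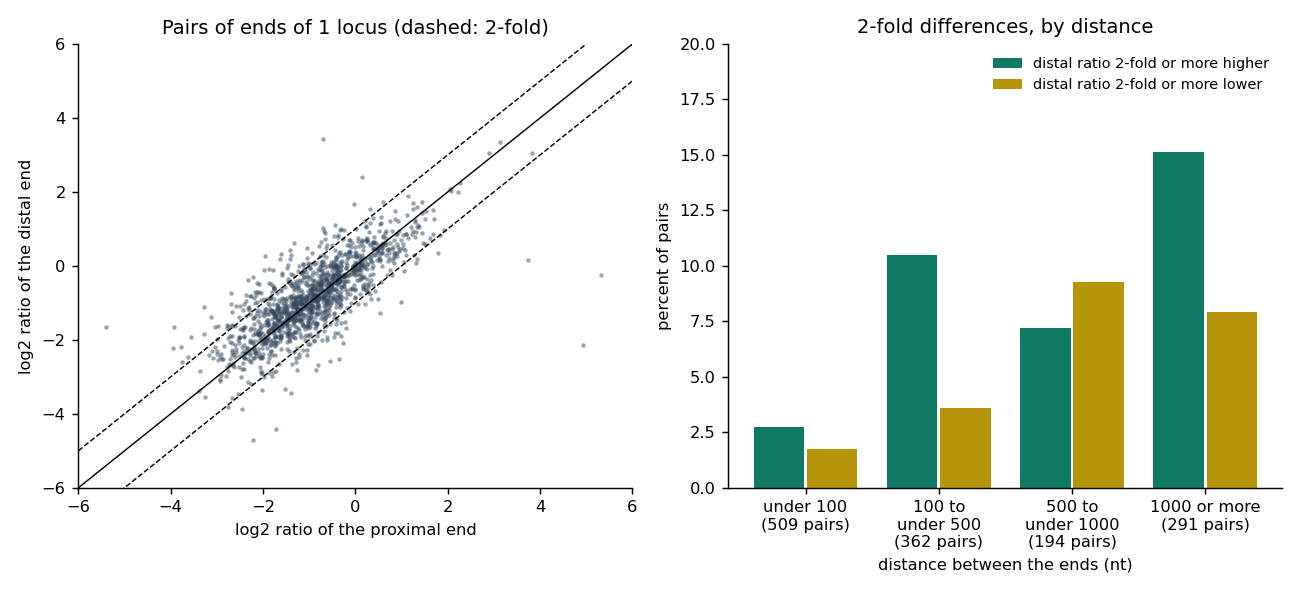
Left, log2 ratio of the distal end (vertical) against the proximal end (horizontal) for 1356 pairs of ends of 1 locus, with lines at equality and at 2-fold. Right, percent of pairs whose distal ratio is 2-fold or more higher or lower, by distance between the ends: in either direction together 4.52% under 100 nt and 23.0% at 1000 nt or more.

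Some of the largest differences joined a light end to one with most of its signal in the later fractions. On the - strand of chromosome 1, the distal end at 158608681 had 19 ribosome-free and 123 monosome counts (ratio 0.229), and the proximal end 4192 nt upstream, at 158612873, had 82 and 4 (ratio 30.4). Distal minus proximal was -7.05 on the log2 scale (95% counting interval -8.39 to -5.33), and this is the pair that joins both classes. The distal end had 79.9% of its gradient signal in the later fractions and the proximal end 8.81%. On the + strand of chromosome 16, the distal end at 23112539 had 128 ribosome-free and 227 monosome counts (ratio 0.836), and the proximal end at 23111506 had 189 and 7 (ratio 40.1). That difference was -5.58 (-6.58 to -4.39), and both ends were light, with 44.1% of the distal and 8.06% of the proximal gradient signal in the later fractions.

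In the other direction, on the - strand of chromosome 11 the distal end at 86397366 had 202 ribosome-free and 28 monosome counts (ratio 10.7), and the proximal end 831 nt upstream, at 86398197, had 170 and 411 (ratio 0.614). The difference was 4.12 (3.48 to 4.72), and 13.5% of the distal but 90.0% of the proximal gradient signal was in the later fractions. On the + strand of chromosome 2, the distal end at 173527682 had 59 ribosome-free and 277 monosome counts (ratio 0.316), and the proximal end at 173527483, 199 nt upstream, had 2 and 126. The difference was 3.75 (1.59 to 5.29), both ends had most of their signal in the later fractions (80.1% and 83.6%), and both fell after actinomycin D, with adjusted p of 0.0057 for the distal and 0.00096 for the proximal end (edgeR). The 4 other named pairs had distal ends at 93744604 and 182500409 on the + strand of chromosome 1, 73419273 on the - strand of chromosome 8 and 127566525 on the - strand of chromosome 10, and differed by 2.22, 2.25, -3.58 and -1.96 in that order. Ends linked into a locus can belong to neighbouring genes, so a pair need not be 2 forms of 1 transcript.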

How the data were processed

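The data are 1 deposited table of raw counts at 33590 poly(A) sites in 12 2P-Seq libraries, with positions in mm9 and 1 scaling factor per library, per the file headers. The submitters' processing notes name Bowtie as aligner, with the version not given in the sources used here. Another value of that table is the authors' deposited half-life: for 631 of 631 members refitted, its decay rate matched a refitted exponential (time in hours) raised by 0.1 per h, to 0.002 per h, so its unit was taken to be hours. The 2 3P-Seq libraries of the series were not analysed here, and per-sample columns left unused numbered 0. Columns named 0 and 1 were taken as the first and second fraction, and the 4 later columns by their names.

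Counts were divided by the header factors to give ratios, with exact Clopper-Pearson 95% intervals. They cover counting error alone: amplified reads are not separate molecules. Differences between ends of a pair carry Woolf intervals with 0.5 added to each count. CPM uses library totals, and levels given as percent of control use the header factors. Intervals on shares of ends take ends as independent, although all share the same libraries.

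Slopes were fitted with edgeR 4.0.16 in R 4.3.3 (TMM, robust quasi-likelihood F test, Benjamini-Hochberg over 16913 ends) on 2 controls and 4 treated libraries, and checked on simulated data. Alternatives used DESeq2 1.42.0. No label places the controls in separate cultures, so the p-values reflect scatter of these libraries about a line, possibly technical. Library totals ran from 4045420 to 6433503 counts in that set, and from 1663346 to 11575417 in the gradient.

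Named ends are the 10 with the highest lower bound and the 10 with the lowest upper bound of the ratio, the 10 most abundant members, and the 4 pairs in each direction whose interval lay farthest from 0. The end at 10059583 on chromosome 19 and its neighbour were chosen after their values were seen. Gene lists drawn up by symbol could not be used without names. Members and lists were chosen with earlier results of these data known.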

Additional observations from a re-analysis of the deposited data

How the results depend on the processing

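Class sizes depended on the scaling, the count minimum and the fold limit. Mainly ribosome-free and mainly monosome ends numbered 1114 and 1469 with library totals and 947 and 1719 with edgeR TMM. With count minimums of 30, 120 and 300 the mainly ribosome-free ends numbered 442, 183 and 80, and the mainly monosome ends 1302 at 300, and at a 3-fold limit 97 and 1897. Spearman's rank correlation with abundance was 0.16, 0.25 and 0.34 at minimums of 30, 120 and 300, 0.18 with 1 end per locus and 0.090 at 50 CPM or more, the last chosen after seeing the data. In that set the rank correlation was 0.083 with neighbours, -0.047 with the slope and -0.037 with the half-life, the last with the opposite sign to that over all members. The rank correlation with neighbours in a 500 nt window was 0.015. With the share in later fractions it was 0.34 at a minimum of 30, and with mean later ribosomes 0.41, 0.47 and 0.52 at 30, 120 and 300.

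With header factors for the slope, 153 mainly ribosome-free ends fell and 13 rose, and 2115 mainly monosome ends fell and 126 rose, as 52.7% of all ends fitted then fell and 2.71% rose. The median slope of all ends fitted was -0.18 per hour with header factors and -0.03 with TMM. With classes by library totals, 354 of 1114 mainly ribosome-free ends fell (31.8%) and 314 rose (28.2%). Of 1460 mainly monosome ends fitted, 419 fell (28.7%) and 443 rose (30.3%). The order of the 2 classes in both shares was thus the reverse of that with the header-factor classes. Of the light ends of the mainly ribosome-free class, a set chosen after seeing the data, 0 fell and 25 rose. Of all light ends, 14 fell and 48 rose with header factors, 2 fell with DESeq2 and 1 with a minimum of 10 counts. Leaving out 1 library at a time, 0 to 1 of them fell and 100 to 122 rose.

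Distal ratios were 2-fold higher and lower in 3 and 8 pairs at 300 counts and in 58 and 26 with loci linked at 500 nt, and the median difference was 0.14 for pairs at least 100 nt apart. The cause of the other changes was not tested. No paired analysis was possible because each time and each fraction has 1 library. Depth limits the ribosome-free fraction most, as it holds 1663346 counts.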

Other observations

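Members on the X chromosome stood apart from autosomal ones in both readouts. The 221 X-linked ends had a median log2 ratio of -0.55 and the 8116 autosomal ends -0.89, while the medians of single autosomes lay between -1.03 and -0.78. Mainly monosome ends made up 28.1% of the X-linked and 45.4% of the autosomal members, and mainly ribosome-free ends 4.98% and 3.38%. After actinomycin D, 15.4% of the X-linked ends fell and 42.5% rose, against 31.9% and 27.9% of the autosomal ends (edgeR, adjusted p under 0.05). Median half-life in the authors' deposited table was 4.76 h on the X and 3.28 h on autosomes. Median control abundance was similar, 42.1 CPM on the X and 44.2 CPM on autosomes. X-linked members had a median of 7.48 ribosomes in the later fractions, against 6.90 for autosomal members. The chromosome was singled out after its values were seen, and no test was run on it.

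By place in the locus, 35.6% of last ends fell and 23.9% rose after actinomycin D, and of first ends 26.1% fell and 32.6% rose, against 31.5% and 28.3% of all members (edgeR, adjusted p under 0.05). Mainly monosome ends made up 43.0% of last and 49.2% of first ends, and median control abundance was 46.4 CPM and 37.2 CPM. No difference between these places was tested. Median half-life in the authors' deposited table was 2.96 h at last ends and 3.75 h at first ends.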
